A study of Mus musculus with 8 samples.

Results

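Imprinted genes are expressed mainly from the copy of 1 parent, and 9 protein-coding ones were followed here in mouse hippocampal neurons in which the deadenylase CNOT7 had been knocked down. They were Zdbf2, Peg3, Snrpn, Ndn, Nnat, Dlk1, Grb10, Impact and Cdkn1c, and all 9 had an entry among the 23845 genes of the deposited table. Zdbf2 was chosen by its measured values in these libraries: the authors' deposited table of total-RNA changes lists it, and among the genes of the authors' tables its knockdown difference was furthest apart between total RNA and long tails. Its knockdown values are therefore a description, with no test. The other 8 were picked by name as imprinted genes, with earlier results of these data known.

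Imprinting is set by DNA methylation laid down in the egg or the sperm, mostly at CpG-rich control regions, and each cluster of imprinted genes follows its own control region. Many such genes act on growth before and after birth and are abundant in the developing brain, and some are imprinted there in neurons only. Grb10 is a known example in the mouse: most tissues use the maternal copy, and neurons use the paternal copy from another start. The table gives 1 value per gene and does not separate parental copies or transcript starts, so levels and not imprinting were measured.

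The cells were primary neurons from mouse embryos of embryonic day 19, infected in culture at 13 to 15 days in vitro and collected at 17 to 19 days. There were 4 groups of 2 libraries: CNOT7 knockdown and scrambled hairpin in total poly(A) RNA, and CNOT7 knockdown and scrambled hairpin in long-tailed RNA. All groups, controls included, carried a lentiviral hairpin. Long-tailed RNA was what stayed on poly(U) agarose through a 50 °C wash, which per the labels takes off tails under 50 nucleotides. The labels do not say if replicate libraries are separate cultures, so p-values measure only the spread between these samples, which may be technical. Values are TPM, a measure of transcript abundance that corrects for length, rounded to whole numbers by the authors. TPM sums to just under 1000000 in each library, so it is a share of the library, and its read depth is unknown.

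Cnot7, the targeted gene, was at 12 and 16 TPM in knockdown total libraries, against 42 and 36 TPM in scrambled total libraries, and at 9 and 11 TPM in knockdown long-tail libraries, against 28 and 31 TPM in scrambled ones. The 7 pan-neuronal markers summed to between 2981 and 4551 TPM and the 9 astrocyte markers to between 3068 and 5738 TPM, so the cultures held RNA of both. The 9 microglia markers summed to between 23 and 39 TPM, with Aif1, Cx3cr1, Tmem119 and Itgam at 0 everywhere, and the endothelial markers Cldn5, Pecam1 and Tek were also at 0 in all libraries. The 11 oligodendrocyte-lineage markers summed to 1258 and 1245 TPM in knockdown total libraries, against 1988 and 1833 TPM in scrambled ones, and the pan-neuronal ones to 4551 and 3859 TPM, against 3779 and 3610 TPM. Neither sum overlapped there, but without Tubb3 the pan-neuronal one was 3889 and 3329 TPM, against 3443 and 3288 TPM, which overlap, and Syt1 was lower after knockdown (428 and 417 TPM, against 492 and 503 TPM). Their part in the results on single genes was not tested. In such bulk samples, fewer cells of a type and less RNA per cell cannot be told apart. The ribosomal precursor Rn45s took between 2.898% and 18.559% of TPM, both extremes in knockdown long-tail libraries. Knockdown long-tail library 2 stood apart by transcript length. Relative to library 1 of its group, the median log2 difference was −0.58 over 1339 genes with at least 10000 exonic bases and 0.39 over 1696 genes with under 2000. In the scrambled long-tail group these medians were 0.14 and 0.12.

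Starts of transcription are shown for Zdbf2 and Grb10, to each of which RefSeq gives more than 1. Snrpn also has more than 1, and its windows are counted below but not shown. The table's single value per gene does not say which start was used. The windows are RefSeq's for GRCm38.p6, each 300 bases (250 before the start and 50 after it), written 5′ to 3′ on the gene's strand, with every CpG in capitals. The letters searched were CG, which reads the same on both strands, and the median window among 32851 held 7. The upstream Zdbf2 window (chr1:63200108-63200407, plus strand) held 15 CpGs, a number reached by 34.6% of windows, and lies outside the gene as GENCODE M21 draws it. The downstream Zdbf2 window (chr1:63273019-63273318, plus strand) held 38, reached by 4.95%. For Grb10, on the minus strand, the outer window (chr11:12037371-12037670) held 45, reached by 1.93%, and the inner window (chr11:12027922-12028221) held 9, reached by 45.8%.
Zdbf2, upstream start: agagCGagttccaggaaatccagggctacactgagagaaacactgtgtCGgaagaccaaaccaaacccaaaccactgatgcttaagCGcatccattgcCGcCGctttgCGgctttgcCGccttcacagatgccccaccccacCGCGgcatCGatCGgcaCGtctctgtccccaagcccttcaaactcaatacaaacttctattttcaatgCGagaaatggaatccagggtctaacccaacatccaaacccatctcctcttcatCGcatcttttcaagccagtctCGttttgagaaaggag
Zdbf2, downstream start: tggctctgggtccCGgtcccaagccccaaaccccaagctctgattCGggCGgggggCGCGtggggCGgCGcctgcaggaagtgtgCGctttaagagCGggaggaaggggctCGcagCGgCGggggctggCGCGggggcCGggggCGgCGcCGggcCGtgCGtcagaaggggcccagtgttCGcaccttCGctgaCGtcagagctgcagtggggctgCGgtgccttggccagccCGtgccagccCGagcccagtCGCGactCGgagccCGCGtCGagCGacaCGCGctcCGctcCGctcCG
Grb10, outer start: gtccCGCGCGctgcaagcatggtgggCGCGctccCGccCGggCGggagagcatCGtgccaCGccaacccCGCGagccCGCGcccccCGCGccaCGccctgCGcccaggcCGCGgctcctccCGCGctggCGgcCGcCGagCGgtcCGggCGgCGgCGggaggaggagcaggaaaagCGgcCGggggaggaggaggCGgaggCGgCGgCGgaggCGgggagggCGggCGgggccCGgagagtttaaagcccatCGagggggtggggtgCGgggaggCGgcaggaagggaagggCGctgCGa
Grb10, inner start: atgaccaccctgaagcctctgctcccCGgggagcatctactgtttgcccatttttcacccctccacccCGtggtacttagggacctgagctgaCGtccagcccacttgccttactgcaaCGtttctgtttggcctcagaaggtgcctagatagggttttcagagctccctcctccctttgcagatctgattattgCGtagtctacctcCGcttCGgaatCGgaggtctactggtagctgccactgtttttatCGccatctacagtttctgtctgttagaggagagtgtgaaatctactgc

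Windows were found for 7 of the 9 genes, 12 in all. Nnat held 17 CpGs (reached by 31.4% of windows), Peg3 13 (37.9%), Ndn 11 (41.4%), Dlk1 9 (45.8%) and the 4 Snrpn windows between 2 and 7. The Zdbf2 downstream and Grb10 outer windows were thus the densest, and the members did not share a high CpG count.

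The 9 genes lie on 6 chromosomes in GRCm38 (GENCODE M21). Peg3 (6703892 to 6730431, minus strand), Snrpn (59982495 to 60140219, minus), Ndn (62346569 to 62350262, plus) and Cdkn1c (143458339 to 143461050, minus) are on chromosome 7. Zdbf2 is on chromosome 1 (63273265 to 63314576, plus), Nnat on chromosome 2 (157560078 to 157562522, plus), Grb10 on chromosome 11 (11930508 to 12038683, minus), Dlk1 on chromosome 12 (109452823 to 109463336, plus) and Impact on chromosome 18 (12955852 to 12992950, plus). Zdbf2 and Peg3 had the longest exons in sum (12659 and 13324 bases), Nnat and Cdkn1c the shortest (1829 and 2039 bases).

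By level per length, the order over all 8 libraries ran from Nnat through Ndn, Impact, Peg3, Snrpn, Dlk1, Grb10 and Cdkn1c to Zdbf2. Nnat and Ndn together held between 83.5% and 92.1% of the TPM of the 9 genes. Nnat averaged 1310 TPM (rank 61 of the 13681 genes tested, those averaging 1 TPM or more), Ndn 326 TPM (rank 451) and Zdbf2 3.75 TPM (rank 11651). The ranges over libraries of Nnat (1054 to 1691 TPM), Ndn (269 to 421 TPM) and Impact (60 to 112 TPM) did not touch. Those of Impact and Peg3 (13 to 68 TPM), of Peg3 and Snrpn (21 to 37 TPM), and of Snrpn and Dlk1 (9 to 28 TPM) overlapped. Dlk1, Grb10 (11 to 18 TPM) and Cdkn1c (9 to 18 TPM) had means of 16.6, 14.1 and 13.4 TPM and were not separated by their spread.

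**Figure D1:**
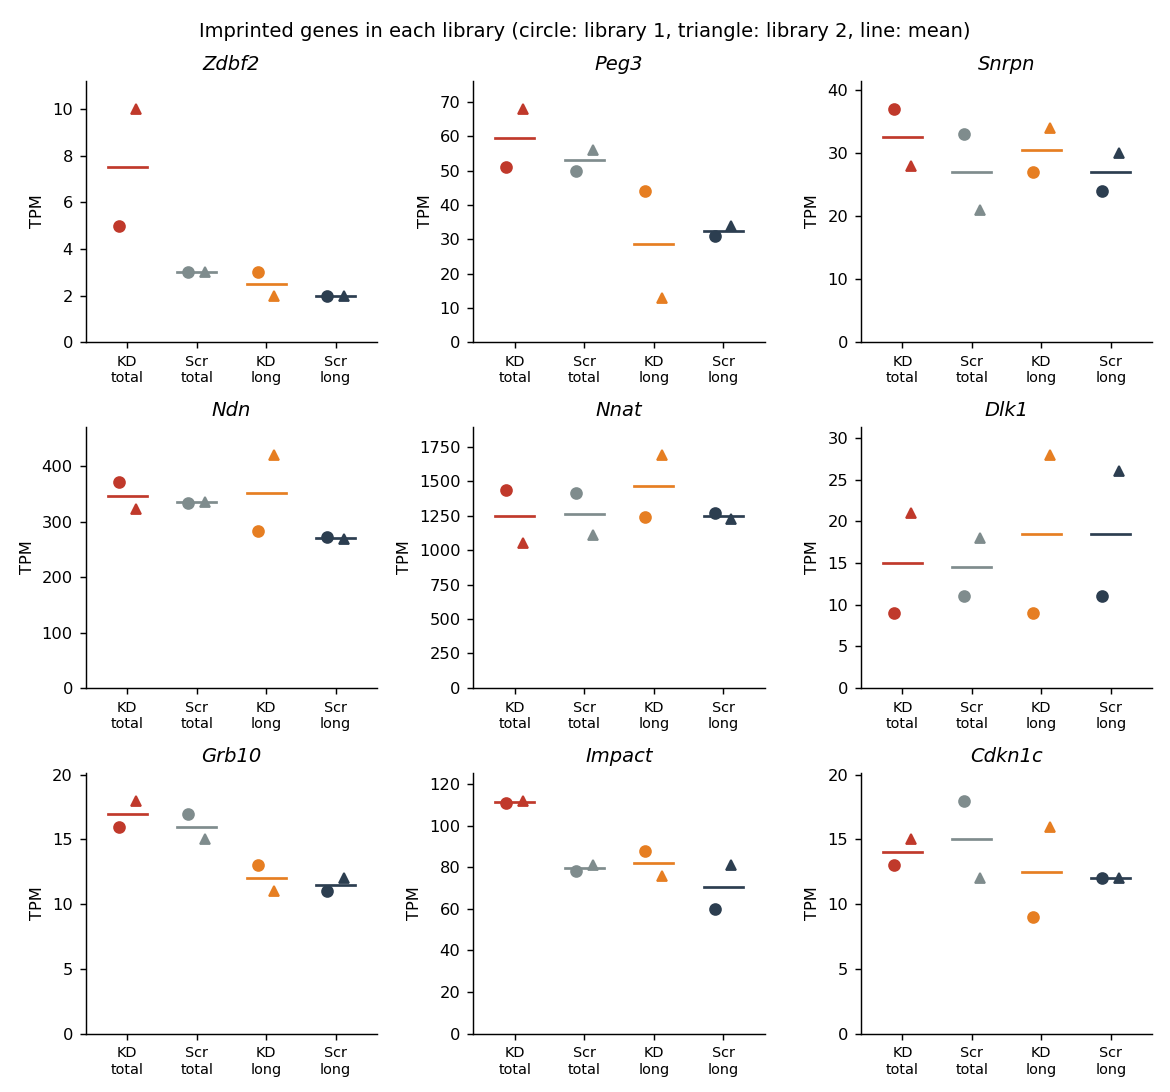
TPM (vertical axis, from 0) of each of the 9 imprinted genes in the 4 groups (KD, CNOT7 knockdown; Scr, scrambled hairpin; total, total poly(A) RNA; long, long tails). Circles are library 1, triangles library 2 and lines the mean; Zdbf2 and Impact stand higher in both knockdown total libraries than in both scrambled ones, and Dlk1 is higher in library 2 of every group.

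In total RNA both knockdown libraries stood above both scrambled ones for Zdbf2 and Impact, and the other 7 genes overlapped between the groups. Zdbf2, which encodes a protein with a DBF-type zinc finger and is linked in the mouse to growth after birth, was at 5 and 10 TPM in knockdown total libraries, against 3 and 3 TPM in scrambled total libraries. Both knockdown values were above both scrambled ones, and they differed from each other by as much as the lower of them. The means were 7.5 ± 3.54 TPM in knockdown and 3 ± 0 TPM in scrambled total RNA (SD, n = 2 each), a ratio of 2.5. Since each value is known only to 0.5 TPM on either side, that ratio could be between 2 and 3.2 before any other error. On the log2(TPM + 1) scale, which understates the change of low genes, the difference was 1.02, and it was 0.58 without knockdown total library 2 and 1.46 without library 1. The authors' deposited table of total-RNA changes has Zdbf2 0.92 higher in knockdown on the log2 scale (SE 0.254), with a mean of 331 normalized counts. Of the tested genes, 0.76% are in that table and 0.709% in the one for long tails, which does not list Zdbf2.

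Impact, an inhibitor of the stress kinase GCN2 that is abundant in neurons, was at 111 and 112 TPM in knockdown total libraries, against 78 and 81 TPM in scrambled ones. The knockdown libraries were within 1 TPM of each other and above both scrambled libraries. The means were 111.5 ± 0.707 and 79.5 ± 2.12 TPM (SD, n = 2 each), and the difference was 0.48 on the log2 scale (SE 0.165, 95% interval 0.07 to 0.89). It did not pass the threshold in limma over all 13681 genes (adjusted p = 0.702, unadjusted p = 0.0285), and the adjusted p was between 0.489 and 1.00 over the alternatives. Higher with no overlap were 2 of 9 members, beside 8.68% of all tested genes. Since Zdbf2 was selected on this difference, nothing is read from that count, and without it 1 of 8 remains. Lower with no overlap were 0 of 9, beside 20.1% of all genes.

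None of the 9 was called by limma in this or any other contrast below. At an adjusted p under 0.05 it called 0% of all genes in each of the 5 contrasts (0 of 13681), while 868 genes in total RNA, 1193 in long tails and 120 in the interaction had an unadjusted p under 0.05. Zdbf2 is left out of this count, since its values chose it. Of the other 8 members, only Impact had one in total RNA, with 0 in long tails and 0 in the interaction. Over the 8 genes other than Zdbf2, the median knockdown difference in total RNA was 0.06, beside −0.07 over all genes, with 5 of 8 higher and 32.6% of all genes higher.

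Peg3, a zinc-finger protein expressed from the paternal copy and known in mice for effects on growth and maternal behaviour, was at 51 and 68 TPM in knockdown total libraries, against 50 and 56 TPM in scrambled ones (log2 0.15, 95% interval −1.16 to 1.47). Snrpn, the brain-rich Sm protein SmN of spliceosomal particles, was at 37 and 28 TPM, against 33 and 21 TPM (log2 0.28, interval −0.40 to 0.96). For both, the groups overlapped and the intervals allow a change in either direction. Snrpn shares its transcript with Snurf, an overlapping reading frame on the same strand whose entry held between 26.6 and 39.5 times the TPM of Snrpn, so the authors' split of reads between them makes the level of Snrpn uncertain. Snurf itself was at 1067 and 744 TPM in knockdown total libraries, against 981 and 811 TPM in scrambled ones, which overlap. In long tails Snurf was at 1059 and 1248 TPM in knockdown libraries, against 947 and 938 TPM in scrambled ones. There it was higher with no overlap, as were 8.91% of all genes (log2 0.29, 95% interval −0.26 to 0.83).

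Ndn, or necdin, a MAGE-family protein that favours neuronal survival, was at 371 and 323 TPM in knockdown total libraries, against 334 and 336 TPM in scrambled ones (log2 0.05, interval −0.45 to 0.55). Nnat, or neuronatin, a small membrane protein of the endoplasmic reticulum, was at 1439 and 1054 TPM, against 1415 and 1107 TPM (log2 −0.02, interval −0.64 to 0.59). In both groups library 1 of Nnat was the higher, and the spread within a group was far larger than the difference between groups.

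Grb10, an adaptor that dampens insulin and IGF receptor signalling, was at 16 and 18 TPM in knockdown total libraries, against 17 and 15 TPM in scrambled ones (log2 0.08, interval −0.28 to 0.44), the narrowest interval of the 9. Cdkn1c, the cyclin-dependent kinase inhibitor p57 expressed from the maternal copy, was at 13 and 15 TPM, against 18 and 12 TPM (log2 −0.07, interval −0.83 to 0.69). Dlk1, a membrane protein with EGF repeats that acts on Notch signalling, was at 9 and 21 TPM, against 11 and 18 TPM (log2 −0.03, interval −1.78 to 1.73). These 3 overlapped between knockdown and scrambled libraries, and the interval of Dlk1 was the widest. The directions of Nnat, Dlk1 and Cdkn1c turned with quantile normalization.

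**Figure D2:**
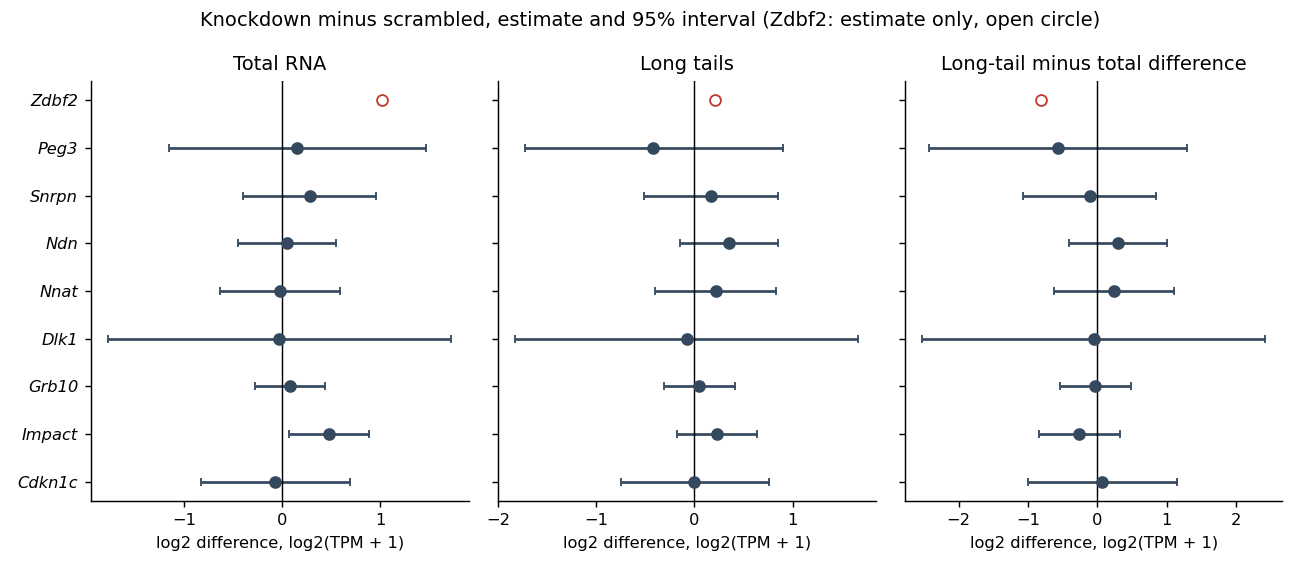
Knockdown minus scrambled difference on the log2(TPM + 1) scale (horizontal axes) of the 9 genes in total RNA (left), in long tails (middle), and the long-tail difference minus the total difference (right). Points are limma estimates and bars 95% intervals, with Zdbf2 as an open circle without a bar; in total RNA, Impact is the gene whose bar lies above 0 (0.07 to 0.89).

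In long-tailed RNA, Zdbf2 stayed low in both conditions, and Ndn was the gene whose groups did not overlap. Zdbf2 was at 3 and 2 TPM in knockdown long-tail libraries, against 2 and 2 TPM in scrambled ones, a log2 difference of 0.21 that vanished (0.00) without knockdown library 1. At these levels rounding alone allows a ratio between 0.80 and 2. Ndn was at 283 and 421 TPM in knockdown long-tail libraries, against 272 and 269 TPM in scrambled ones (log2 0.35, SE 0.201, interval −0.15 to 0.85; limma adjusted p = 0.649, range 0.0816 to 0.966 over the alternatives). It rested on knockdown library 2: without it the difference was 0.06, and without library 1 it was 0.64. Of the 9 members, 1 was higher and 0 lower with no overlap, where 8.91% and 17.1% of all genes were.

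Peg3 split between the knockdown long-tail libraries. It was at 44 and 13 TPM there, against 31 and 34 TPM in scrambled long-tail libraries, so library 1 was above and library 2 below both controls. The difference was −0.42 (limma adjusted p = 0.817), and it was 0.43 without knockdown library 2 and −1.26 without library 1. Nnat was at 1243 and 1691 TPM, against 1269 and 1224 TPM, with library 2 above both controls. The part of that library's length pattern in these values was not tested.

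The remaining genes overlapped in long tails. Impact was at 88 and 76 TPM in knockdown libraries, against 60 and 81 TPM in scrambled ones (log2 0.23, interval −0.18 to 0.64), and Snrpn at 27 and 34 TPM, against 24 and 30 TPM (0.17, −0.51 to 0.85). Grb10 was at 13 and 11 TPM, against 11 and 12 TPM (0.05, −0.31 to 0.41), Cdkn1c at 9 and 16 TPM, against 12 and 12 TPM (0.00, −0.75 to 0.76), and Dlk1 at 9 and 28 TPM, against 11 and 26 TPM (−0.08, −1.83 to 1.67). The direction of Dlk1 turned with quantile normalization. The median of the 8 genes other than Zdbf2 was 0.11, beside −0.10 over all genes.

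Whether knockdown acted alike on the 2 fractions was asked with the interaction, the long-tail difference minus the total difference. It ran from −0.81 for Zdbf2 to 0.30 for Ndn. The median was −0.05 for the 9 genes and −0.02 for all genes, and with Zdbf2 included the former is only a description. For Zdbf2 the interaction is the value that chose it. It was −0.38 without knockdown total library 2, whose 10 TPM is the highest Zdbf2 value of the series, and −0.61 without knockdown long-tail library 2. For Peg3 it was −0.57 (95% interval −2.42 to 1.29), and 0.28 without knockdown long-tail library 2. By exonic length, the median interaction was 0.07 over genes under 2000 bases and −0.29 over those of at least 10000, the class of Zdbf2 and Peg3. The classes were set after the data were seen, and the part of length in either value was not tested.

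Peg3 and Grb10 were lower in long tails than in total RNA in both conditions with no overlap, as were many genes. In knockdown neurons, Grb10 was at 13 and 11 TPM in long tails, against 16 and 18 TPM in total RNA (log2 −0.47, SE 0.145; limma adjusted p = 0.146). In scrambled neurons it was at 11 and 12 TPM, against 17 and 15 TPM (−0.44, SE 0.145; limma adjusted p = 0.377). All 4 long-tail values of Grb10 were below all 4 total values in TPM. With quantile normalization, which gives all libraries the same distribution, the differences were −0.13 in knockdown and −0.18 in scrambled neurons. The median over the 4386 genes with 5000 to 9999 exonic bases, the class of Grb10, was −0.44 in knockdown and −0.35 in scrambled neurons, so its difference was near that of its length class. For Peg3 the difference was −1.25 in knockdown neurons (adjusted p = 0.207 by limma) and −0.69 in scrambled neurons (adjusted p = 0.541), again with no overlap in either. The knockdown value of Peg3 was −0.41 without knockdown long-tail library 2 (limma adjusted p = 0.374). Without library 1 it was −2.10 (limma adjusted p = 0.0154, with 2104 genes called), a fit that rests on the library standing apart by length and assumes that this lone library varies like the other groups.

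For Zdbf2 the difference was −1.23 in knockdown neurons and −0.42 in scrambled neurons on the log2 scale. The scrambled one is a single rounding step (2 and 2 TPM in long tails, against 3 and 3 TPM in total RNA), and rounding allows a ratio between 0.429 and 1, which includes no difference. Impact was at 88 and 76 TPM in knockdown long tails, against 111 and 112 TPM in knockdown total RNA (−0.44, adjusted p = 0.172 by limma), and overlapped in scrambled neurons (−0.19). Ndn did not overlap in scrambled neurons, at 272 and 269 TPM in long tails, against 334 and 336 TPM in total RNA (−0.31, adjusted p = 0.479 by limma). In each condition 4 of 9 members were lower with no overlap and 0 higher. Zdbf2 is among them in both conditions, and its knockdown values led to its choice, so its part is only a description. The others were Peg3 and Grb10 in both conditions, with Impact in knockdown and Ndn in scrambled neurons. Among all genes, 40.0% were lower and 4.04% higher in knockdown neurons, and 39.6% lower and 4.69% higher in scrambled neurons. The members' share, Zdbf2 included, was near that of all genes. The all-gene median was −0.22 in both conditions, against which these differences are read. In the longest class, that of Zdbf2 and Peg3, it was −0.77 in knockdown and −0.48 in scrambled neurons.

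Genes with a profile most like that of Zdbf2 were sought by the root mean square distance between profiles over the 8 libraries, each on the log2(TPM + 1) scale and centred on its own mean. Among 11074 genes averaging 5 TPM or more the median distance was 0.612, and Zdbf2's own spread around its mean was 0.603. Among the nearest were Ttc39b (0.151), Bicd1 (0.193), Nwd2 (0.202) and Pak3 (0.212). Ttc39b was at 9 and 14 TPM in knockdown total libraries, against 6 and 6 TPM in scrambled ones, and at 6 and 4 TPM in knockdown long tails, against 3 and 4 TPM. Pak3, a kinase of the neuronal cytoskeleton, was at 38 and 55 TPM in knockdown total libraries, against 23 and 25 TPM in scrambled ones. Since the genes were picked by likeness over these libraries, their shared pattern is a description.

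Of the entries next to Zdbf2 on chromosome 1, 1 was abundant enough to compare. Adam23, an adhesion protein at a synapse and the next gene after Zdbf2 with an entry, was at 77 and 70 TPM in knockdown total libraries, against 70 and 64 TPM in scrambled ones, groups that share a value. Its log2 difference was 0.13, with a 95% interval of −0.85 to 1.11 that includes the 1.02 of Zdbf2. Gpr1, Snora41 and Dytn, the other entries nearest to Zdbf2, were at 0 or 1 TPM in every library.

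Beyond these 9, imprinted protein-coding genes were taken from a list of 65, of which 64 had an entry and 54 were tested, the 9 included. In total RNA 22 were higher and 30 lower after knockdown, the median difference was −0.04, and limma called 0. With no overlap, 5 were higher (9.26%, beside 8.68% of all genes) and 12 lower (22.2%, beside 20.1%). Zdbf2, selected on this difference, is among the 22 and the 5 higher, so its part there is only a description. In long tails 17 were higher and 35 lower, the median was −0.07, and 0 were called. There, 3 were higher with no overlap (5.56%, beside 8.91% of all genes) and 11 lower (20.4%, beside 17.1%). In both fractions these no-overlap shares, with Zdbf2 counted in total RNA, were near those of all genes. At an unadjusted p under 0.05 there were 3 up and 4 down in total RNA, where all genes gave 280 up and 588 down. The 3 up include Zdbf2, whose values chose it, and nothing is read from its part. In long tails there were 0 up and 8 down of 54, where all 13681 genes gave 308 up and 885 down, a smaller share down. Of these 8, Ddc and Dio3 each rest on 1 rounding step.

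Usp29, a deubiquitinase that shares the promoter region of Peg3 and is read the other way, was at 12 and 14 TPM in knockdown total libraries, against 6 and 6 TPM in scrambled ones (log2 1.00; limma adjusted p = 0.55). Both knockdown values were well above the scrambled ones, while Peg3 beside it overlapped. The authors' deposited table of total-RNA changes has it 0.90 higher in log2 (adjusted p = 0.0191). In long tails Usp29 was at 9 and 5 TPM in knockdown libraries, against 4 and 5 TPM in scrambled ones, values that meet.

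Rasgrf1, a paternally expressed exchange factor for Ras and Rac in neurons, was at 7 and 8 TPM in knockdown total libraries, against 14 and 17 TPM in scrambled ones, and at 6 and 6 TPM in knockdown long tails, against 12 and 14 TPM. The groups did not overlap in either fraction (log2 −0.95 in total RNA, 95% interval −1.33 to −0.57, and interval −1.38 to −0.62 in long tails; limma adjusted p = 0.284 and 0.272). The authors' deposited table of total-RNA changes has it at −0.82 in log2 (adjusted p = 0.00722). Plagl1, a zinc-finger transcription factor known to regulate other imprinted genes, was at 23 and 32 TPM, against 46 and 46 TPM in total RNA, and at 10 and 13 TPM, against 21 and 28 TPM in long tails (limma adjusted p = 0.659 and 0.405). The authors' deposited table of long-tail changes has it at −0.75 in log2 (adjusted p = 0.039). The authors' genes were chosen on these same libraries, so their tables add no independent evidence.

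Copg2, a coat protein subunit beside Mest, was at 27 and 30 TPM, against 37 and 36 TPM in total RNA (limma adjusted p = 0.717), and at 21 and 20 TPM, against 25 and 29 TPM in long tails (adjusted p = 0.503). Ddc, the decarboxylase of dopamine and serotonin synthesis and a neighbour of Grb10, was at 1 TPM in every knockdown and 2 TPM in every scrambled library, so its small limma p (adjusted p = 0.0806 in total RNA and 0.152 in long tails) rests on 1 rounding step. Dio3, which inactivates thyroid hormone, was at 1 and 1 TPM in knockdown long tails, against 2 and 2 TPM (adjusted p = 0.429 by limma), also 1 step. Begain, a synaptic protein near Dlk1, was at 72 and 66 TPM in knockdown long tails, against 54 and 39 TPM (log2 0.58, adjusted p = 0.659 by limma), and overlapped in total RNA. Peg10 was at 17 and 20 TPM in knockdown total libraries, against 15 and 15 TPM (0.28, adjusted p = 0.98 by limma).

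**Figure D3:**
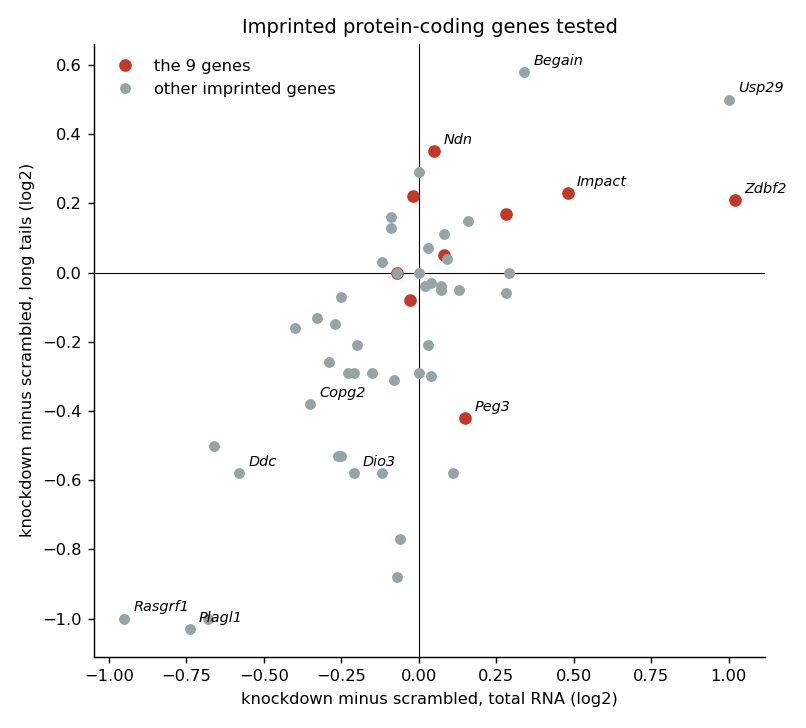
Knockdown minus scrambled difference of the 54 tested imprinted protein-coding genes in total RNA (horizontal) and long tails (vertical), both on the log2(TPM + 1) scale, the 9 genes in red and the others in grey. Usp29 lies near Zdbf2 in total RNA (1.00 and 1.02), and Plagl1 (−1.03) and Rasgrf1 lie lowest in long tails among the named genes.

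Of 10 imprinted non-coding RNAs, 8 were tested and 0 called. In total RNA 5 were higher, 2 lower and 1 equal, with a median of 0.20 beside −0.07 over all genes. In long tails 3 were higher and 5 lower, with a median of −0.30 beside −0.10. Mirg, a microRNA host of the Dlk1 cluster, was at 15 and 12 TPM in knockdown total libraries, against 9 and 8 TPM, and at 15 and 28 TPM in knockdown long tails, against 11 and 10 TPM (log2 0.60 and 0.91; limma adjusted p = 0.882 and 0.508). Peg13, within Trappc9, was at 51 and 50 TPM in total RNA after knockdown, against 75 and 67 TPM (−0.48, adjusted p = 0.463 by limma), and at 45 and 40 TPM, against 53 and 55 TPM in long tails (−0.34, adjusted p = 0.507). In both fractions Mirg stood higher and Peg13 lower in the knockdown libraries, with no overlap.

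Of the other non-coding RNAs of the Dlk1 cluster, Rian was at 262 and 250 TPM in knockdown total libraries, against 224 and 207 TPM (0.25, adjusted p = 0.924 by limma), and Meg3 at 174 and 217 TPM, against 191 and 161 TPM. Rian did not overlap in total RNA and Meg3 did. Snhg14, downstream of Snrpn, was at 5 and 14 TPM, against 5 and 8 TPM, and Kcnq1ot1, antisense to Kcnq1 near Cdkn1c, at 2 and 6 TPM, against 2 and 4 TPM. Airn, antisense to Igf2r, was at 5 and 4 TPM in both conditions. These 3 overlapped between the groups.

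No partner of the members passed the threshold. Among 12 genes of the GCN2 pathway that Impact acts on, 7 were higher and 4 lower in total RNA (median 0.06). With no overlap, 2 were higher and 2 lower, beside 8.68% and 20.1% of all genes. Asns, an asparagine synthetase that the pathway induces, was at 146 and 112 TPM in knockdown, against 109 and 95 TPM. Its inducer Atf4 was at 210 and 171 TPM, against 189 and 149 TPM, which overlap. Atf3, a stress-induced factor of the same pathway, was at 3 and 3 TPM, against 4 and 4 TPM. In long tails 4 of the 12 were higher and 1 lower with no overlap, beside 8.91% and 17.1% of all genes. Asns (109 and 128 TPM, against 90 and 89 TPM) and Atf4 (230 and 251 TPM, against 195 and 191 TPM) were among the higher there, and Atf3 (3 and 3 TPM, against 5 and 4 TPM) was lower. Among 14 genes of insulin and IGF signalling, on which Grb10 acts, 4 were higher and 10 lower in total RNA (median −0.16). With no overlap, 2 were higher and 3 lower, beside 8.68% and 20.1% of all genes. The kinase subunits Pik3ca (15 and 7 TPM in knockdown long tails, against 19 and 19 TPM) and Pik3r1 (40 and 23 TPM, against 41 and 56 TPM) were lower in long tails without passing the threshold. For both, the lowest value was that of knockdown library 2, which stood apart by transcript length. The part of that pattern was not tested.

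Among 16 G1 cyclins, kinases and inhibitors, the partners of Cdkn1c, 3 were higher and 13 lower in total RNA (median −0.22 beside −0.07 over all genes). With no overlap, 3 were higher and 4 lower, beside 8.68% and 20.1% of all genes. Ccnd3, a D-type cyclin, was at 97 and 91 TPM after knockdown, against 145 and 122 TPM (−0.50, adjusted p = 0.557 by limma), Ccnd1 at 252 and 252 TPM, against 310 and 299 TPM (−0.27, adjusted p = 0.709), and Cdk2 at 7 and 7 TPM, against 9 and 10 TPM. These 3 were lower with no overlap, as was the inhibitor Cdkn1a (159 and 141 TPM, against 204 and 205 TPM). The other 3 genes of the list without overlap were higher: the cyclin Ccnd2 (247 and 270 TPM, against 212 and 216 TPM), the inhibitor Cdkn2d (83 and 72 TPM, against 65 and 63 TPM) and E2f1 (12 and 12 TPM, against 10 and 10 TPM). Of 13 Notch pathway genes, the partners of Dlk1, 4 were higher and 9 lower (median −0.13), and the Notch target Hes1 was at 13 and 11 TPM, against 10 and 8 TPM (0.38, adjusted p = 0.777 by limma). The ligand Jag2 was at 8 and 7 TPM, against 6 and 6 TPM, and these were the 2 higher with no overlap, beside 8.68% of all genes. The 3 lower with no overlap, beside 20.1% of all genes, were the receptor Notch3 (9 and 9 TPM, against 11 and 10 TPM), the target Hey1 (75 and 78 TPM, against 80 and 85 TPM) and the DNA-binding effector Rbpj (24 and 24 TPM, against 28 and 31 TPM). The receptor Notch2 was at 32 and 43 TPM, against 40 and 52 TPM, which overlap.

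Of 14 tested factors that keep imprints or set DNA methylation, 7 were higher and 7 lower in total RNA (median 0.01). In long tails 2 were higher and 10 lower (median −0.28 beside −0.10). With no overlap, 0 were higher and 2 lower in total RNA, beside 8.68% and 20.1% of all genes. In long tails 0 were higher and 5 lower with no overlap, beside 8.91% and 17.1% of all genes. Ctcf, an insulator protein that binds the H19 control region, was at 26 and 22 TPM in knockdown long tails, against 29 and 35 TPM (−0.40, adjusted p = 0.554 by limma). The silencing factors Smchd1 (8 and 5 TPM, against 9 and 11 TPM) and Setdb1 (17 and 13 TPM, against 18 and 20 TPM) were also lower in both knockdown long-tail libraries. For Ctcf, Smchd1 and Setdb1 the lowest value was that of knockdown library 2, which stood apart by transcript length. The part of that pattern was not tested. Of 11 other spliceosomal particle proteins, the partners of Snrpn, 6 were higher and 5 lower in total RNA (median 0.01), and Snrpb, the close relative of Snrpn, was at 114 and 103 TPM, against 116 and 125 TPM. All 11 were higher in long tails than in total RNA in both conditions (medians 0.35 in knockdown and 0.34 in scrambled neurons, beside −0.22 over all genes). With no overlap, 2 were higher in knockdown and 3 in scrambled neurons, beside 4.04% and 4.69% of all genes. Over genes with under 2000 exonic bases the medians were 0.21 and 0.11, and the part of length was not tested. Snrpn differed by −0.08 and 0.03, and Snurf, which shares its transcript, by 0.37 and 0.08, with overlap in both conditions. Of 7 tested MAGE relatives and partners of Ndn, 2 were higher and 4 lower in total RNA (median −0.04). Trim27 was at 17 and 13 TPM in knockdown, against 14 and 11 TPM, and Maged2 at 56 and 48 TPM, against 55 and 59 TPM. In all of these lists limma called 0 members.

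Dlk1 followed the number of the library and not the hairpin. It was at 21, 18, 28 and 26 TPM in the libraries numbered 2 (knockdown total, scrambled total, knockdown long and scrambled long), and at 9, 11, 9 and 11 TPM in those numbered 1. The lowest library numbered 2 was above the highest numbered 1, which held for 3.05% of all tested genes, with the reverse for 1.94%. Of the 9 members it was the only one so separated. Igf2, a fetal growth factor, behaved likewise at 12, 17, 11 and 14 TPM in the libraries numbered 2, against 3, 4, 3 and 3 TPM in those numbered 1. Dcn, a matrix proteoglycan of fibroblasts, was at 9, 10, 8 and 11 TPM, against 4, 5, 3 and 3 TPM.

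H19, the non-coding RNA that shares a control region with Igf2 on chromosome 7, ran the other way. It was at 4, 6, 6 and 5 TPM in the libraries numbered 2, against 31, 52, 23 and 42 TPM in those numbered 1. Peg12 was the only one of the 54 imprinted protein-coding genes lower in the libraries numbered 2 with no overlap, at 2 TPM in each of those and 3 TPM in each library numbered 1, which is a single rounding step. Dlk1, Igf2 and Dcn were the 3 that were higher. The labels do not say what a number stands for. Acta2, a marker of smooth muscle and mural cells, was at 259, 274, 318 and 265 TPM in the libraries numbered 2, against 163, 180, 138 and 162 TPM, and made up most of the summed level of its list (278 to 336 TPM, against 165 to 217 TPM). In that list of 8, Cldn5, Pecam1 and Tek were at 0, and Vtn and Rgs5 were lower in the libraries numbered 2. Pdgfrb was higher in library 2 of all 4 groups, at 12, 16, 8 and 10 TPM, against 10, 12, 7 and 7 TPM. The 9 markers of meninges, fibroblasts and choroid plexus summed to 74 to 123 TPM in the libraries numbered 2, against 102 to 120 TPM, with Slc22a6 and Kl at 0. Most of that sum was the choroid plexus gene Ttr (51 to 107 TPM, against 86 to 109 TPM). Without it the sum was 23, 26, 16 and 20 TPM in the libraries numbered 2, against 15, 17, 11 and 11 TPM, higher in library 2 of all 4 groups. The fibroblast collagen Col3a1 was at 5, 7, 3 and 4 TPM, against 2, 2, 1 and 1 TPM. Lum was at 2, 1, 2 and 2 TPM, against 1, 0, 0 and 0 TPM, levels at which rounding weighs. The list's other collagens were less uniform. Col1a1 was at 8, 9, 5 and 6 TPM, against 7, 8, 6 and 7 TPM, so it was lower in library 2 of the long-tail groups. Col1a2 was at 6, 7, 4 and 5 TPM, against 4, 6, 4 and 3 TPM. Astrocyte markers summed to 3068 to 4397 TPM, against 4336 to 5738 TPM, ranges that overlap. Of these 9 markers, 4 moved the same way in all 4 groups, and 0 were higher in library 2 of all 4. Gfap was at 1488, 1767, 1611 and 1609 TPM, against 3078, 2934, 2337 and 2303 TPM. Aldh1l1 went otherwise, at 69, 84, 62 and 65 TPM, against 69, 69, 52 and 47 TPM. Aqp4 was mixed, at 364, 423, 133 and 305 TPM, against 327, 370, 235 and 229 TPM. The part of these cells in the levels of Dlk1, Igf2 and H19 was not tested.

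**Figure D4:**
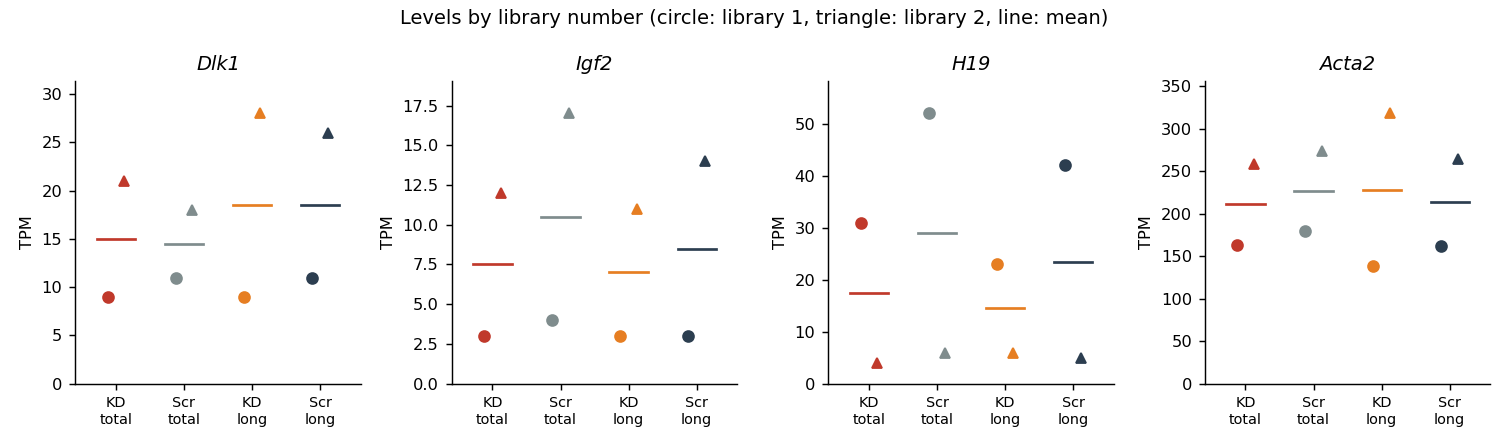
TPM (vertical axes, from 0) of the imprinted genes Dlk1, Igf2 and H19 and of the mural marker Acta2 in the 4 groups, with circles for library 1, triangles for library 2 and lines for the mean. Dlk1, Igf2 and Acta2 are higher in library 2 of every group, and H19 is lower there (4 to 6 TPM, against 23 to 52 TPM).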

How the data were processed

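Per the labels' protocols, poly(A) RNA of cultured mouse hippocampal neurons was bound to poly(U) agarose, eluted whole or after a wash, and made into libraries with the Nextflex qRNA-Seq Kit. The submitters' processing notes name the mm10 build (GRCm38) and the tools TopHat2, CASAVA, DESeq, DESeq2 and RSEM, with neither roles nor versions. The gene values are a score deposited by the authors, TPM rounded to whole numbers, as whole values summing to just under 1000000 per library show. No counts were used. The authors' deposited tables give a log2 fold change, its SE, a mean normalized count (signal) and a raw and an adjusted p-value, for genes whose adjusted p is below 0.05. Their deposited log2 sign was opposite to knockdown minus scrambled for all 201 entries and was turned.

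Here, log2(TPM + 1) of the 13681 genes averaging 1 TPM or more was fitted with limma 3.58.1 (R 4.3.3; 4 group means over all 8 libraries, trend in eBayes, two-sided, Benjamini-Hochberg over all genes). Tests were tried on simulated data. With 2 libraries against 2 an exact permutation test was not run. Counts with no overlap compare the libraries' values directly. Members and lists were chosen with earlier results of these data known. Named genes are the members, up to 4 imprinted genes per direction with the smallest p per knockdown contrast, those in an authors' table, all tested imprinted non-coding RNAs, up to 3 genes of each other list, the 5 nearest to Zdbf2 in profile and its 2 nearest entries on each side; some genes that this rule names are not reported here. Igf2, Dcn, Peg12, Snurf, further partner genes without overlap (Cdkn1a, Ccnd2, Cdkn2d, E2f1, Notch3, Hey1, Rbpj) and single cell-type markers were named after their values were seen. Names of 27 genes stood as dates and could not be matched. Positions are from GENCODE M21 on GRCm38, and 95.5% of tested genes had a length. Alternatives were other pseudocounts (0.5 and 0.1), filters, scalings, no trend, a replicate block and each library left out.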

Additional observations from a re-analysis of the deposited data

How the results depend on the processing

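Across all alternatives limma called 0 of the imprinted genes tested (9, but 8 with a minimum mean of 5 TPM and 5 with 20 TPM, both without Zdbf2) in both knockdown contrasts, in the interaction and in long tails minus total of scrambled neurons. In long tails minus total of knockdown neurons the number of members called ran from 0 to 1 when single libraries were left out (Peg3, without knockdown long-tail library 1). The number of all genes called was 0 in the fits of the report. It was 43 in total RNA, 54 in long tails, 56 for long tails minus total in knockdown and 33 in scrambled neurons when low genes were kept. With a minimum mean of 5 TPM these were 6, 5, 1 and 2, and at 20 TPM 7, 13, 1 and 1. Quantile normalization gave 4 and 1 for the knockdown contrasts and rescaling without Rn45s 1 and 1. Leaving out single libraries gave 0 to 32 in total RNA, 0 to 6 in long tails, 0 to 2104 for long tails minus total in knockdown, 0 to 57 in scrambled neurons and 0 to 2 for the interaction. The cause was not tested.

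Among the members, these uncalled directions turned. In total RNA, quantile normalization gave 0.01 for Nnat, 0.06 for Dlk1 and 0.01 for Cdkn1c, and rescaling without Rn45s 0.02 for Nnat and 0.02 for Dlk1. In long tails quantile normalization gave 0.04 for Dlk1. Leaving out single libraries gave, in total RNA, −0.05 to 0.36 for Peg3, −0.03 to 0.59 for Snrpn, −0.05 to 0.15 for Ndn, −0.25 to 0.20 for Nnat, −0.59 to 0.54 for Dlk1 and −0.34 to 0.20 for Cdkn1c. In long tails it gave −1.26 to 0.43 for Peg3, −0.85 to 0.69 for Dlk1 and −0.06 to 0.16 for Grb10. For long tails minus total in scrambled neurons it gave −0.33 to 0.84 for Dlk1 and −0.40 to 0.03 for Impact, and for the interaction −1.41 to 0.28 for Peg3. Values of 0.00 had no direction to turn, and with single libraries left out they ran from −0.38 to 0.39 for Cdkn1c in long tails and from −0.29 to 0.28 for Ndn in long tails minus total of knockdown neurons. Cdkn1c in long tails was 0.14 with quantile normalization and −0.02 without Rn45s. Zdbf2 ran from 0.58 to 1.46 in total RNA and from −1.25 to −0.38 in the interaction, a direction that its selection set.

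With the replicate number as a block limma called 0 genes and 0 members in all 5 contrasts, and likewise with crossed numbers in knockdown long tails, which was added after the data were seen. The differences between library 2 and library 1 correlated across 11082 genes at r = 0.631 between knockdown and scrambled total RNA and 0.703 between the scrambled fractions, but at −0.16 between the knockdown fractions. The labels state no pairing. Rounding to whole TPM limits Zdbf2 most, and depth is unknown.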
